A study of Mus musculus with 6 samples.

Results

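DNA replication and S phase genes were described as a set of 37 genes chosen by name for their part in copying the genome, from the loading of the helicase at origins to the supply of nucleotides. All 37 were found once each among the 57180 genes of the deposited table, and all 37 passed the filter on low counts, as did 13260 genes in total. RNA was sequenced from macrophages grown from the bone marrow of wild-type mice aged 6 to 8 weeks, whose strain the labels do not name. Marrow cells were kept in M-CSF at 20 ng/mL for 7 days. The cultures compared then received IL-4 with CGRP (3 libraries) or only IL-4 (3 libraries). IL-4 was given at 20 ng/mL, and both treatments lasted 24 h. CGRP is a neuropeptide of sensory nerves, and IL-4 is a cytokine of type 2 immunity. The labels leave the CGRP concentration open to more than one reading, so it is not given. Every culture had IL-4, so these data hold no measure of what IL-4 itself did to the genes. Separate cultures or animals are not stated for the replicates, so p-values refer to the spread among these libraries only, and that spread could be technical.

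Library totals ran from 20088895 to 24060444 counts. All 10 macrophage markers had counts in every library, and their sum was 15714 to 15920 CPM (counts scaled to library size) in IL-4+CGRP and 15196 to 15412 CPM in IL-4. One library stood apart from its group: on the first principal component of all tested genes (37.6% of variance) IL-4+CGRP replicate 2 lay at 0.169, while IL-4+CGRP replicates 1 and 3 lay at -22.0 and -27.0 and the IL-4 libraries from 11.2 to 26.0. Calls among the replication and mitosis genes that depend on it are given with and without it.

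Before a cell copies its DNA, the origin recognition complex, Cdc6 and Cdt1 load the ring of Mcm2 to Mcm7 onto origins. Cdc45 and the GINS complex turn that ring into an active helicase, and primase, the polymerases and the sliding clamp Pcna follow it. Most genes of this machinery are switched on at the G1 to S transition by E2F transcription factors, and they are high in dividing cells and low in resting ones. Macrophages grown in M-CSF are able to divide, and IL-4 has been reported to drive the division of tissue macrophages in mice.

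The promoters of several of these genes carry letters of the kind E2F factors bind. An E2F motif was searched in 4 spellings, TTTCCCGC, TTTGGCGC, TTTCGCGC and TTTGCCGC, on both strands, with overlapping matches kept, in the 300 bases from 250 before to 50 after each start site in the RefSeq promoter table (build GRCm38.p6, whereas the counts were made on GRCm39). The table held promoters for 31 of the 37 genes, and 12 of the 31 (38.7%) had at least 1 match, against 2.6% of all 27025 genes in the table. The 12 were Orc1, Cdc6, Cdt1, Mcm3, Mcm5, Mcm6, Mcm7, Pola1, Pold1, Rfc3, Lig1 and Uhrf1. The 37 genes were chosen for a role that E2F factors serve, and the 27025 genes were not limited to those tested here. The shares are thus a description only. Sites spelled otherwise were not searched, so a gene without a match, Pcna among them, may still hold an E2F site. The 250 bases before the start site are printed below for Pcna, because it was the only gene of the set past the test threshold. Mcm6, Mcm5 and Pola1 are shown as examples of genes with a match in that stretch, chosen after the matches were seen. Matches are in capitals, and a match on the opposite strand reads reversed and complemented, as in Pola1. The capitals of Mcm5 and the first run of capitals in Mcm6 each cover a pair of overlapping matches on opposite strands. The Pcna stretch (chr2:132253181-132253430 on the minus strand) holds none of the 4 spellings. The others are chr1:128359706-128359955 on the minus strand, chr8:75109259-75109508 on the plus strand and chrX:93632156-93632405 on the minus strand.
Pcna: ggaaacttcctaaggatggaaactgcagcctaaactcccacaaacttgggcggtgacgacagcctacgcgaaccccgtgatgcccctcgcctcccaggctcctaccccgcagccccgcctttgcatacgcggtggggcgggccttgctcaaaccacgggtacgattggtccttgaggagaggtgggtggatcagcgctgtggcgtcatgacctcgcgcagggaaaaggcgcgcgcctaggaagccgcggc
Mcm6: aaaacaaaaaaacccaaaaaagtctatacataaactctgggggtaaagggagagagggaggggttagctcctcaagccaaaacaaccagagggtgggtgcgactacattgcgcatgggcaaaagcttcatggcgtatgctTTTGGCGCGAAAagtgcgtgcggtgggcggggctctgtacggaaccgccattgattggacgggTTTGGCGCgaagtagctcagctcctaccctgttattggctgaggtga
Mcm5: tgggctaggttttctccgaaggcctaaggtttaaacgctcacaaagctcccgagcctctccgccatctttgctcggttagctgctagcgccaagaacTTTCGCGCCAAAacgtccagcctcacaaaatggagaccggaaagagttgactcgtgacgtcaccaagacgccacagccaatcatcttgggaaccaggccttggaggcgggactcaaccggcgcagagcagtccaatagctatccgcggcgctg
Pola1: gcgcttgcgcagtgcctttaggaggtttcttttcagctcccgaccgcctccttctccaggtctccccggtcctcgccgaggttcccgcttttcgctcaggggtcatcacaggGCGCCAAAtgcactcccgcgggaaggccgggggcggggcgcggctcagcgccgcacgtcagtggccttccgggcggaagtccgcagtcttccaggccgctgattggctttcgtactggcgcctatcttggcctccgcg

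The median log2 fold change, IL-4+CGRP over IL-4, was -0.13 in the 12 genes with a match, and it was -0.07 in the 19 genes without one. All 12 genes with a match and 12 of the 19 without had a log2 fold change below 0, against 50.8% of all tested genes. Genes with no listed promoter were in neither group. The difference between the groups was not tested.

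The measured differences between the treatments were small in most of the 37 genes, and most lay below 0. Pcna fell, 36 genes did not pass the edgeR test at an adjusted p of 0.05, and 0 rose; DESeq2 and limma-voom also called Pcna lower and 0 genes higher. Pcna was thus 1 of 37 genes called lower (2.7%), against 1.54% of all tested genes called lower, 2.32% called higher and 3.85% called in either direction, so 1 call is near the share in the whole table. The share of higher genes among all calls was 60.1%, it was 71.2% under scaling by library totals only, 49.1% without IL-4+CGRP replicate 2, and 47.3% with IL-4 replicate 1 left out as well. The log2 fold change was below 0 in 29 of 37 genes (78.4%), against 50.8% of all tested genes, and the median was -0.10 in the set and -0.004 over all tested genes. In 12 genes (32.4%) every IL-4+CGRP library was below every IL-4 library, against 9.92% of all tested genes. In 0 genes was every IL-4+CGRP library above every IL-4 library, against 11.1%. Without IL-4+CGRP replicate 2, 31 of 37 values were below 0, and 18 genes had no overlap and were lower, against 23.7% of all tested genes. At an unadjusted edgeR p under 0.05, 8 of 37 genes (21.6%) were lower, against 7.21% of all tested genes, and 0 were higher, against 8.61%. These counts describe the set and carry no test of their own, since the genes were chosen with earlier results known and are not independent of each other.

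**Figure D1:**
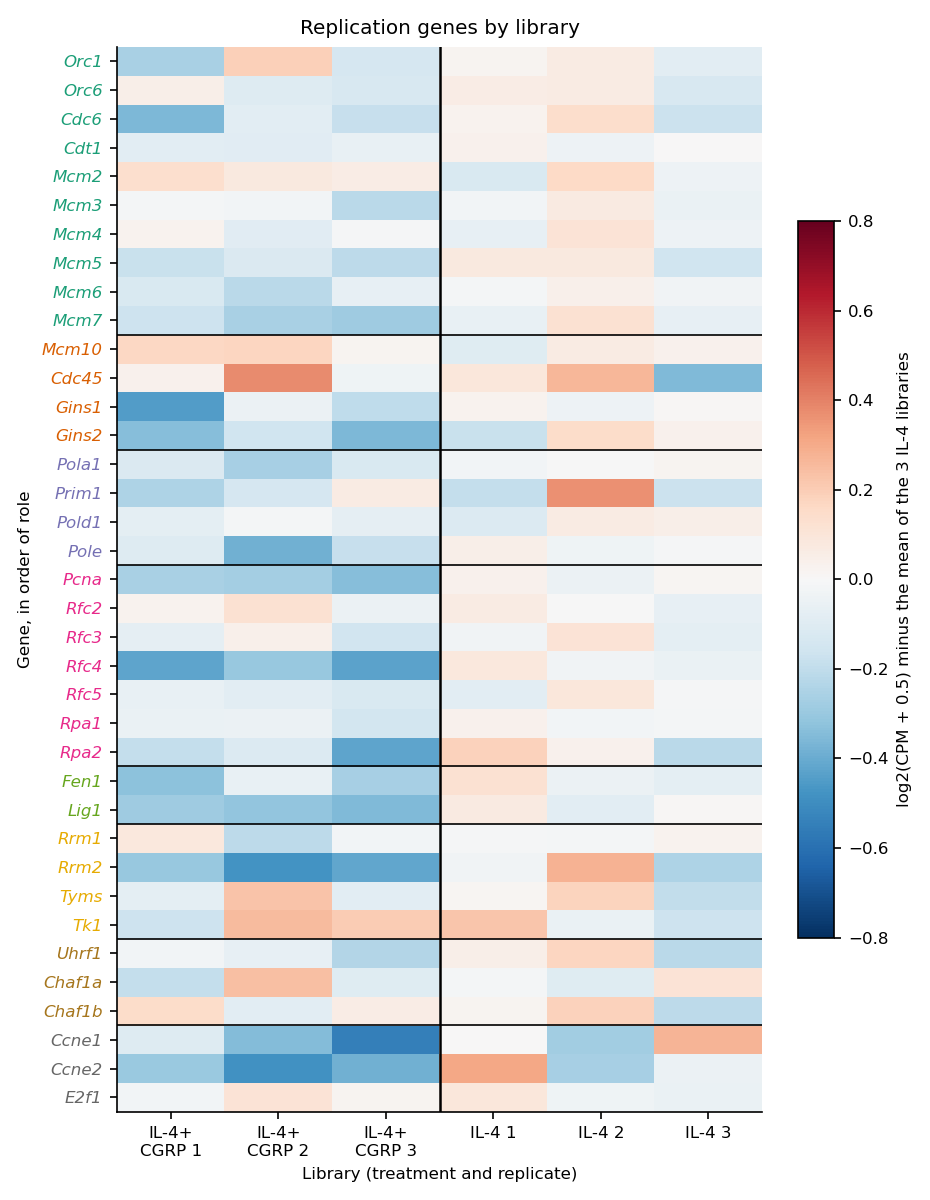
Heat map of the 37 genes (rows, in order of role, names coloured by role) in the 3 IL-4+CGRP and 3 IL-4 libraries (columns). Colour is log2(CPM + 0.5) minus the mean of the IL-4 libraries. Pcna, Rfc4 and Lig1 are blue in every IL-4+CGRP column, while Tyms, Tk1 and Cdc45 vary as much within a group as between groups.

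Summed over the 37 genes, the level was 739, 745 and 713 CPM in IL-4+CGRP replicates 1 to 3, against 808, 813 and 783 CPM in IL-4 replicates 1 to 3. The groups did not overlap, and the mean was 0.914 of that in IL-4. Without Pcna, the most abundant gene of the set, the sums were 611, 618 and 592 CPM in IL-4+CGRP, against 651, 664 and 628 CPM in IL-4. These did not overlap either. In RNA from a whole culture, fewer cells in S phase cannot be told apart from less of these transcripts per cell.

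Pcna (ENSMUSG00000027342), the ring that tethers polymerases to DNA, was measured at 128, 127 and 121 CPM in IL-4+CGRP replicates 1 to 3, against 157, 148 and 155 CPM in IL-4 replicates 1 to 3. Every IL-4+CGRP library lay below every IL-4 library. The means were 125 ± 3.86 CPM in IL-4+CGRP and 154 ± 4.69 CPM in IL-4 (SD, n = 3 each). Pcna was 1.22-fold lower (log2 fold change -0.29 ± 0.05 SE; 95% interval -0.41 to -0.18; edgeR adjusted p = 0.0089). Among the fits that left out a single library, the call ended without IL-4 replicate 1 (adjusted p = 0.052) and without IL-4 replicate 3 (adjusted p = 0.062). The call also ended with the replicate number fitted as a block (edgeR adjusted p = 0.059). Over all alternatives the adjusted p ran from 2.9e-05 to 0.062 and the log2 fold change from -0.32 to -0.24. The table lists 2 Pcna pseudogenes, Pcna-ps1 and Pcna-ps2, at 0 counts in every library.

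The rest of the clamp group load the clamp or coat bare DNA. Rpa1, the large subunit of the protein that binds single-stranded DNA, stood at 58.5, 58.8 and 54.8 CPM in IL-4+CGRP, against 62.2, 59.9 and 60.01 CPM in IL-4. The groups did not overlap, but the difference was small and did not pass (log2 fold change -0.08 ± 0.06 SE; edgeR adjusted p = 0.53). Rfc4, a subunit of the clamp loader, measured 3.34, 3.67 and 3.33 CPM in IL-4+CGRP, against 4.96, 4.55 and 4.46 CPM in IL-4. The groups did not overlap, yet the 1.35-fold lower level did not pass (log2 fold change -0.43 ± 0.14 SE; edgeR adjusted p = 0.14). Its partners in the loader, Rfc2, Rfc3 and Rfc5, had log2 fold changes of 0.03, -0.07 and -0.09. Rpa2, the partner of Rpa1, had one of -0.25, with groups that overlapped.

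**Figure D2:**
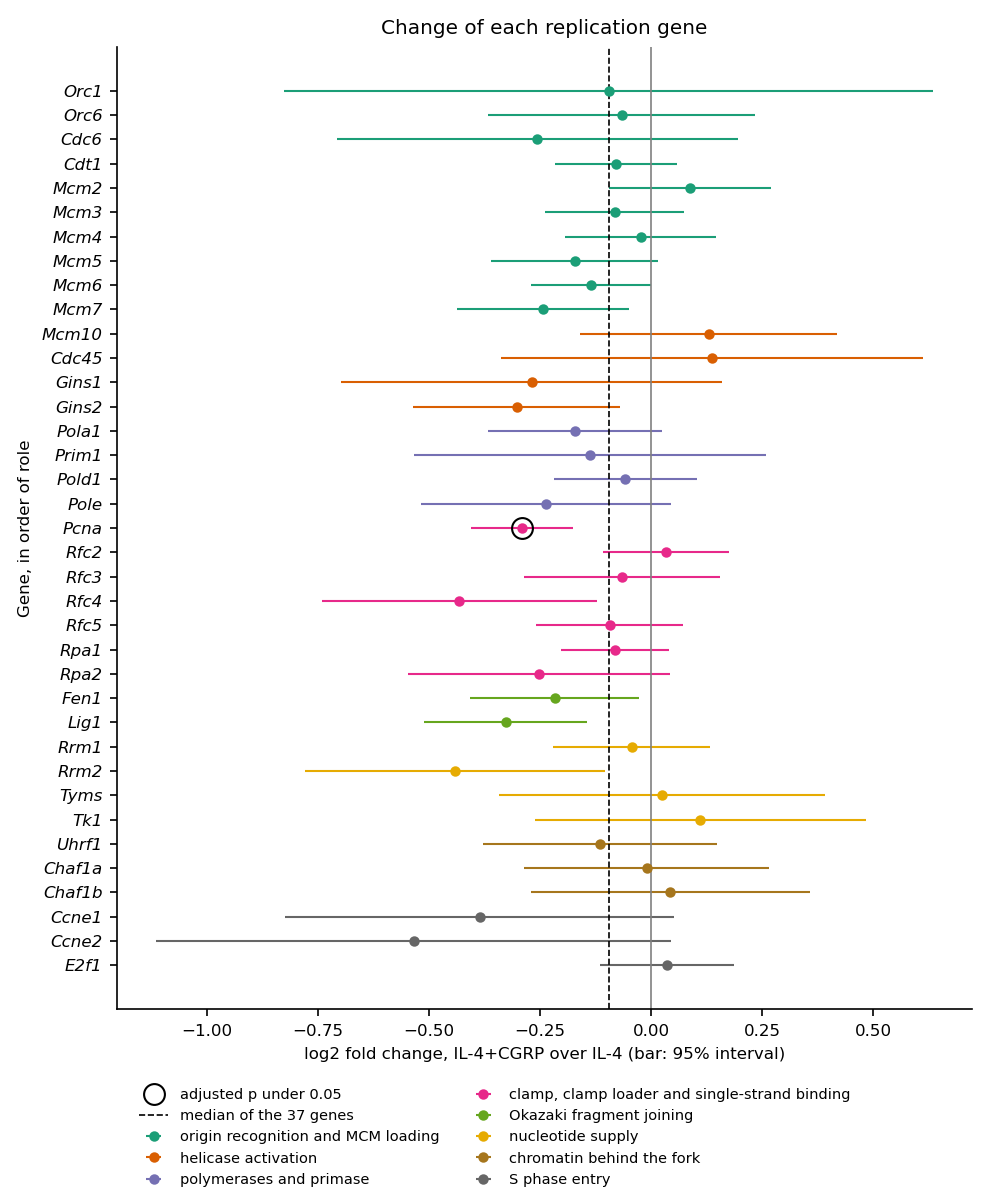
Log2 fold change (IL-4+CGRP over IL-4, x axis) of each of the 37 genes (y axis, in order of role), with 95% intervals from the edgeR fit; the circled point passed the test and the dashed line is the set's median. Only Pcna, at -0.29, is circled, and 29 of 37 points lie left of 0.

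Okazaki fragments on the lagging strand are trimmed by Fen1, the flap nuclease, and joined by Lig1, DNA ligase I. Fen1 was at 28.5, 34.5 and 29.7 CPM in IL-4+CGRP, against 39.2, 34.7 and 33.9 CPM in IL-4. Replicate 2 of IL-4+CGRP was within the IL-4 range and the other two were below it (log2 fold change -0.22 ± 0.09, SE; edgeR adjusted p = 0.24). Lig1 was at 16.2, 15.8 and 15.4 CPM in IL-4+CGRP, against 20.9, 18.7 and 20.02 CPM in IL-4. Its groups did not overlap, and it lay just outside the threshold (log2 fold change -0.33 ± 0.08 SE; edgeR adjusted p = 0.054); it is named because its value was seen to be the nearest to it.

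The calls of Lig1, Fen1 and Gins2 depended on the libraries included. Without IL-4+CGRP replicate 2, 4 genes of the set were called lower: Pcna, Lig1 (adjusted p = 0.024), Fen1 (adjusted p = 0.012) and Gins2 (adjusted p = 0.028), all by edgeR. The same 4 were called when IL-4 replicate 1 was also left out. Without IL-4+CGRP replicate 2 the 4 genes were 10.8% of the set, against 7.04% of all tested genes called lower in that fit. With IL-4 replicate 1 also left out, they were again 10.8%, against 8.88% of all tested genes called lower.

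Among the genes that mark and load origins, 0 of 10 passed in edgeR, and 2 (Mcm6 and Mcm7) had an unadjusted p under 0.05. Of all tested genes, 7.21% were lower at that p, a share that also stands beside the counts of the role groups that follow. Mcm6 had 45.3, 42.4 and 47.1 CPM in IL-4+CGRP, against 48.8, 50.8 and 48.5 CPM in IL-4, without overlap (log2 fold change -0.14 ± 0.06, SE; edgeR adjusted p = 0.31). Mcm3 had 41.9, 41.8 and 36.5 CPM in IL-4+CGRP, against 41.7, 44.6 and 40.9 CPM in IL-4, and these overlapped (-0.08 ± 0.07, SE; edgeR adjusted p = 0.63). The ring is built from equal numbers of Mcm2 to Mcm7, and 5 of the 6 had a log2 fold change below 0, from -0.02 for Mcm4 to -0.24 for Mcm7. Mcm2 was the exception at 0.09. The 95% intervals of all 6 lay within a 1.5-fold change in either direction. Cdt1, the loading factor, was below the IL-4 range in each IL-4+CGRP library by little (log2 fold change -0.08), and Cdc6, its partner, had -0.26 at 2.03 CPM in IL-4+CGRP and 2.43 CPM in IL-4. Orc6 had -0.07. Orc1, at 13 to 20 counts per library, had a log2 fold change of -0.10 with a 95% interval of -0.83 to 0.63.

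Genes that activate the helicase had values on both sides of 0, and 0 of 4 passed in edgeR (1, Gins2, at an unadjusted p under 0.05). Gins2, a GINS subunit, measured 13.6, 15.5 and 13.5 CPM in IL-4+CGRP, against 15.3, 19.3 and 17.8 CPM in IL-4, with replicate 2 of IL-4+CGRP above replicate 1 of IL-4 (log2 fold change -0.30 ± 0.11, SE; edgeR adjusted p = 0.17). Its partner Gins1 had -0.27, with groups that did not overlap. Mcm10, which helps to start the helicase, measured 5.12, 5.14 and 4.60 CPM in IL-4+CGRP, against 4.20, 4.74 and 4.63 CPM in IL-4, and these ranges overlapped (0.13 ± 0.13, SE; edgeR adjusted p = 0.69). Cdc45 had 0.14, the highest value of the set, over a 95% interval of -0.34 to 0.61.

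All 4 genes of the polymerase and primase group had a log2 fold change below 0, and 0 passed in edgeR or reached an unadjusted p under 0.05. Pola1, the catalytic subunit of the polymerase that starts each strand, was at 13.6, 12.2 and 13.6 CPM in IL-4+CGRP, against 14.6, 14.7 and 15.0 CPM in IL-4, without overlap (-0.17 ± 0.09, SE; edgeR adjusted p = 0.39). Pold1, of the lagging-strand polymerase, was at 26.9, 28.1 and 26.9 CPM in IL-4+CGRP, against 26.2, 29.7 and 29.3 CPM in IL-4, with overlap (-0.06 ± 0.07, SE; edgeR adjusted p = 0.76). Pole, of the leading-strand polymerase, had -0.24 without overlap, and the primase subunit Prim1 had -0.14 with overlap.

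In nucleotide supply, 0 of 4 genes passed in edgeR (1, Rrm2, at an unadjusted p under 0.05). Rrm2, the ribonucleotide reductase subunit made in S phase, measured 5.41, 4.73 and 4.96 CPM in IL-4+CGRP, against 6.63, 8.31 and 5.63 CPM in IL-4. Its ranges did not overlap, but IL-4 replicates spread widely (log2 fold change -0.44 ± 0.15, SE; edgeR adjusted p = 0.17). Rrm1, the large subunit of that enzyme, measured 34.0, 27.6 and 31.4 CPM in IL-4+CGRP, against 31.7, 31.7 and 32.6 CPM in IL-4 (-0.04 ± 0.08, SE; edgeR adjusted p = 0.83). The difference between the subunits was not tested. Tyms and Tk1, which make thymidine nucleotides, had log2 fold changes of 0.02 and 0.11.

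Among genes that restore chromatin behind the fork, Chaf1a, of the histone chaperone CAF-1, measured 9.57, 13.0 and 10.2 CPM in IL-4+CGRP, against 10.9, 10.2 and 11.9 CPM in IL-4. Its log2 fold change was -0.01 ± 0.13 (SE; edgeR adjusted p = 0.98), its partner Chaf1b had 0.04, and Uhrf1, which helps to copy DNA methylation, had -0.12. At the entry to S phase, E2f1 measured 35.03, 38.4 and 36.04 CPM in IL-4+CGRP, against 37.8, 34.7 and 34.2 CPM in IL-4, with overlap (0.04 ± 0.07, SE; edgeR adjusted p = 0.84). Ccne2, a cyclin E, was at 1.32, 1.10 and 1.22 CPM in IL-4+CGRP, against 2.28, 1.36 and 1.67 CPM in IL-4. That is the lowest log2 fold change of the set, -0.53 ± 0.26 (SE), from 24 to 45 counts per library, and it did not pass (edgeR adjusted p = 0.36). The other cyclin E, Ccne1, had -0.39 with groups that overlapped.

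The role groups differed in how clearly their summed levels separated, described here with no test. Sums did not overlap for the clamp group (269.6 to 290.4 CPM in IL-4+CGRP, 313 to 325 CPM in IL-4), the origin group (213 to 220.5 CPM in IL-4+CGRP, 221 to 241 CPM in IL-4), the polymerases (49.5 to 51.1 CPM in IL-4+CGRP, 51.5 to 57.1 CPM in IL-4) and the Okazaki pair (44.7 to 50.3 CPM in IL-4+CGRP, 53.4 to 60.1 CPM in IL-4). They overlapped for helicase activation, nucleotide supply, chromatin and S phase entry. In the origin group the nearest libraries were at 220.5 CPM (IL-4+CGRP) and 221.4 CPM (IL-4). For the polymerases they were at 51.1 CPM (IL-4+CGRP) and 51.5 CPM (IL-4). Both gaps are smaller than the spread of the library scaling factors (0.985 to 1.016), so neither separation is clear of the scaling. The separation of the clamp group rested on Pcna, at 121 to 128 CPM in IL-4+CGRP and 148 to 157 CPM in IL-4. With Pcna taken out, the sums of that group overlapped.

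For 29 of the 37 genes the 95% interval lay within a 1.5-fold change in either direction, and for 36 within a 2-fold change. Among all 13260 tested genes, 9510 intervals lay within 1.5-fold and 11656 within 2-fold. The gene of the set whose interval reached past 2-fold was Ccne2. In data simulated for this comparison over 13260 genes, 40% of genes changed 1.3-fold were recovered and 80.9% of those changed 1.5-fold. No simulated library stood apart from its group or had a trend with gene length, and the spread was set by a gene's level alone. The changed genes were drawn at random from all tested genes, so these rates need not hold for the 37 genes.

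Per kilobase of gene length, which allows levels of different genes to be compared, Pcna stood far above the rest at 82.7 CPM per kb in IL-4+CGRP and 101 CPM per kb in IL-4. Rpa1 came next at 19.5 CPM per kb in IL-4+CGRP and 20.6 CPM per kb in IL-4. The lowest were Ccne2 (0.404 in IL-4+CGRP and 0.588 in IL-4) and Orc1 (0.231 in IL-4+CGRP and 0.246 in IL-4). Within the Mcm2 to Mcm7 ring the levels ran from 5.55 (Mcm7) to 15.4 (Mcm6) CPM per kb in IL-4+CGRP and from 6.58 to 16.97 CPM per kb in IL-4. Of the clamp loader subunits, Rfc4 was at 2.70 CPM per kb in IL-4+CGRP and 3.64 in IL-4, below Rfc2, Rfc3 and Rfc5, which were at 8.41 to 10.6 in IL-4+CGRP and 8.96 to 10.4 in IL-4.

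**Figure D3:**
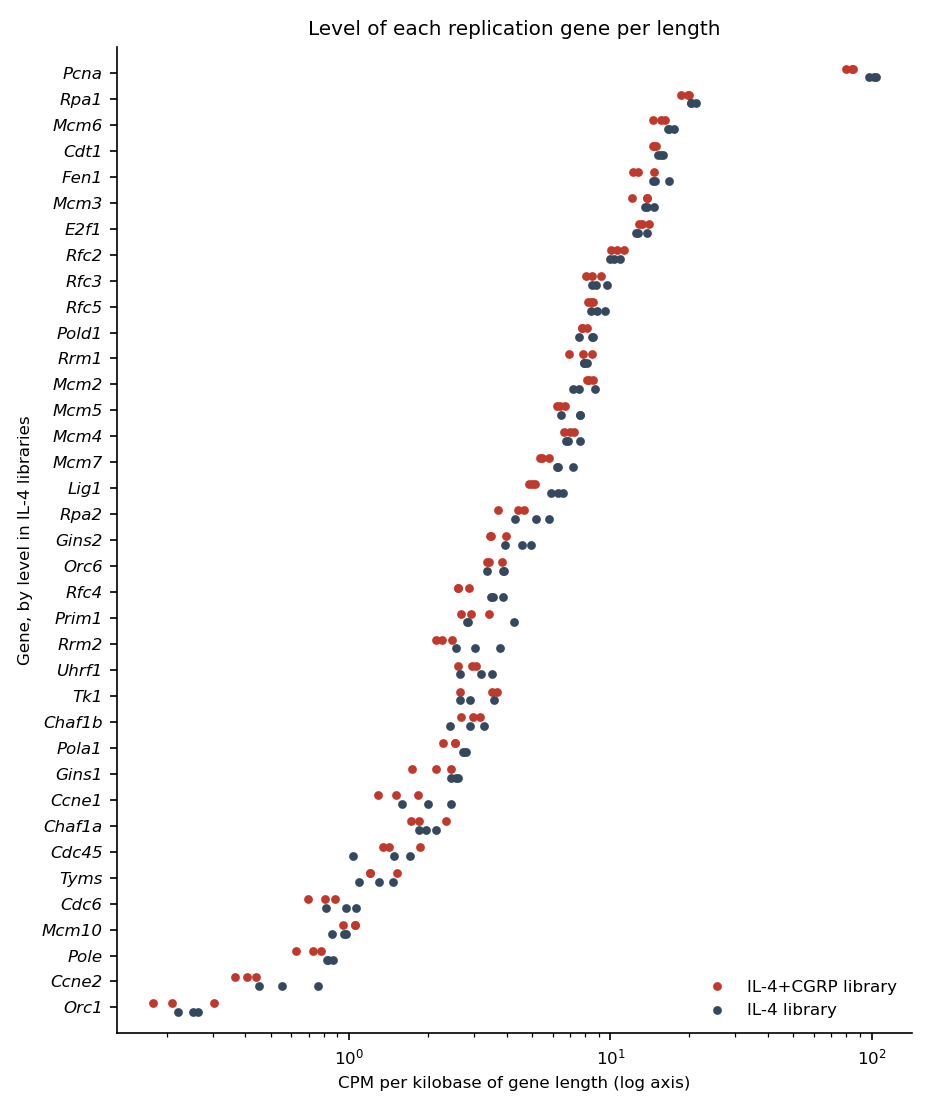
Level of each of the 37 genes in CPM per kilobase of gene length (log x axis), ordered by the level in IL-4, with 1 point per library (red, IL-4+CGRP; dark blue, IL-4). Pcna, at 82.7 in IL-4+CGRP and 101 in IL-4 on average, lies far to the right of the other genes.

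A wider list of 79 other replication genes was examined, of which 78 were tested; Dscc1, at 0.481 CPM in IL-4+CGRP and 0.415 CPM in IL-4, was not. In this list 2 fell, 0 rose and 76 did not pass in edgeR, with 7 lower and 3 higher at an unadjusted p under 0.05. Of all tested genes, 1.54% were called lower and 2.32% higher, and 7.21% were lower and 8.61% higher at that unadjusted p. The median log2 fold change of the list was -0.04, and 49 of 78 values (62.8%) were below 0, against 50.8% of all tested genes. Dna2, a nuclease and helicase that trims long flaps of Okazaki fragments, measured 5.24, 4.41 and 5.59 CPM in IL-4+CGRP, against 8.20, 9.39 and 9.88 CPM in IL-4. The groups lay well apart, and Dna2 was 1.80-fold lower (log2 fold change -0.85 ± 0.13 SE; edgeR adjusted p = 0.0031). Dna2 passed in every alternative run, with adjusted p from 1.5e-07 to 0.032. Gmnn, geminin, which holds Cdt1 back from loading origins again, measured 7.55, 8.68 and 6.62 CPM in IL-4+CGRP, against 11.9, 10.7 and 10.3 CPM in IL-4. It was 1.44-fold lower without overlap (-0.52 ± 0.12, SE; edgeR adjusted p = 0.034). Among the fits with no replicate block, the Gmnn call ended under limma-voom, without robust dispersions, and without each library in turn except IL-4+CGRP replicate 2, and the adjusted p ran from 0.0017 to 0.17 over all alternatives.

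**Figure D4:**
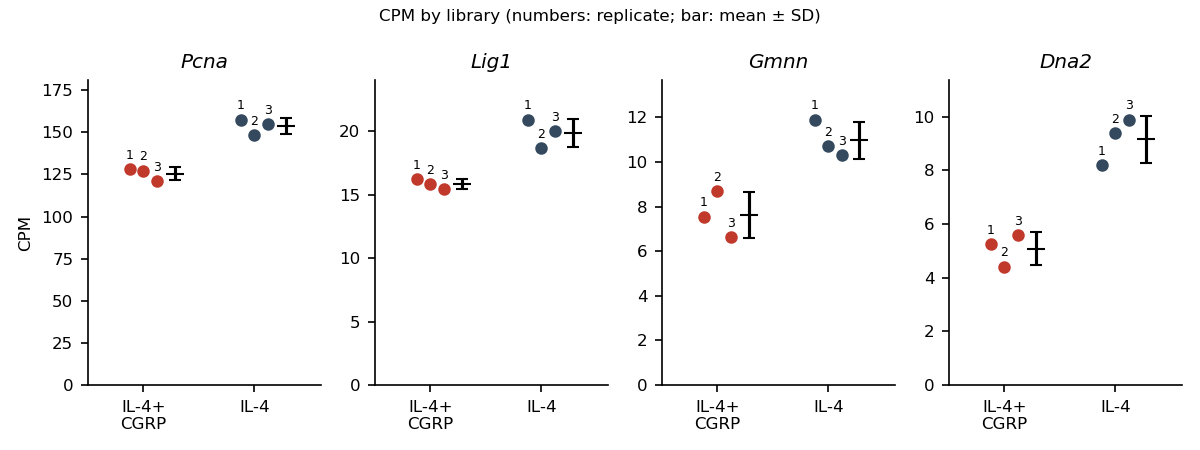
CPM of Pcna, Lig1, Gmnn and Dna2 in each library (red, IL-4+CGRP; dark blue, IL-4; numbers give the replicate), with mean ± SD of 3 libraries beside the points. In all 4 genes the IL-4+CGRP points lie below the IL-4 points; Lig1 did not pass the test.

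Regulators that were to be named whatever their result, beside Gmnn and Cdkn1c, did not pass. Samhd1, which degrades nucleotides in myeloid cells, averaged 982 ± 31.4 CPM in IL-4+CGRP and 1001 ± 34.8 CPM in IL-4 (SD, n = 3 each; log2 fold change -0.03, edgeR adjusted p = 0.81). Dnmt1, the maintenance DNA methyltransferase, averaged 156 ± 9.05 CPM in IL-4+CGRP and 149 ± 9.21 CPM in IL-4 (0.07, edgeR adjusted p = 0.67). Rb1, the retinoblastoma protein that restrains E2F, averaged 51.1 ± 3.64 CPM in IL-4+CGRP and 45.2 ± 3.62 CPM in IL-4 (0.18, edgeR adjusted p = 0.28). In the E2F, RB and S phase kinase list, 10 of 14 values were above 0 and 0 passed in edgeR (2 higher at an unadjusted p under 0.05), with a median log2 fold change of 0.06. In this list 28.6% of values were below 0, against 50.8% of all tested genes, of which 8.61% were higher at that p.

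Genes of mitosis were examined beside those of S phase. Of 25, 1 fell, 0 rose and 24 did not pass in edgeR (3 lower and 1 higher at an unadjusted p under 0.05), with 20 values below 0 and a median log2 fold change of -0.14. The shares over all tested genes were 1.54% called lower, 7.21% lower and 8.61% higher at that p, and 50.8% with a value below 0. Kif11, the spindle motor, measured 6.19, 5.88 and 6.98 CPM in IL-4+CGRP, against 8.20, 9.15 and 9.22 CPM in IL-4 (-0.48 ± 0.12, SE; edgeR adjusted p = 0.042). In fits with no replicate block, the Kif11 call ended when libraries were scaled by totals alone, with DESeq2, with limma-voom, without robust dispersions, and without IL-4+CGRP replicate 1 or any of the IL-4 libraries (adjusted p from 0.0099 to 0.17 over all alternatives). Mki67, the proliferation marker, measured 45.9, 40.4 and 49.1 CPM in IL-4+CGRP, against 39.4, 39.9 and 39.1 CPM in IL-4. The groups did not overlap, but the difference did not pass (0.19 ± 0.07, SE; edgeR adjusted p = 0.22). Mki67 was called higher without IL-4+CGRP replicate 2 (edgeR adjusted p = 0.0062), where 6.78% of all tested genes were called higher. Top2a averaged 22.7 ± 1.65 CPM in IL-4+CGRP and 24.1 ± 1.38 CPM in IL-4 (SD, n = 3 each; -0.08, edgeR adjusted p = 0.69).

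**Figure D5:**
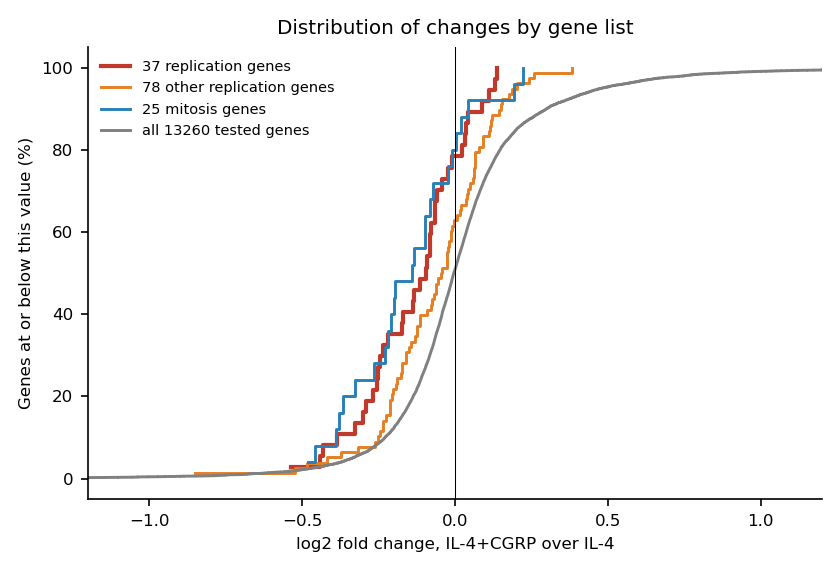
Cumulative share of genes (y axis, %) by log2 fold change (x axis, IL-4+CGRP over IL-4) for the 37 replication genes, 78 other replication genes, 25 mitosis genes and all 13260 tested genes. Over most of their range the curves of the 3 lists lie left of that of all genes, with medians of -0.10, -0.04 and -0.14 against -0.004; the x axis is limited to -1.2 to 1.2.

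Upstream of S phase, 2 of 11 tested CDK inhibitors and G1 cyclins fell and 0 rose in edgeR (3 lower and 0 higher at an unadjusted p under 0.05). The shares over all tested genes were 1.54% called lower and 7.21% lower at that p. Cdkn1c, the CDK inhibitor p57, was at 3.88, 6.02 and 4.82 CPM in IL-4+CGRP, against 11.7, 12.4 and 11.9 CPM in IL-4 (log2 fold change -1.30 ± 0.14, SE; edgeR adjusted p = 3.5e-04). Ccnd1, cyclin D1, which opens the way to S phase through CDK4 and CDK6, was chosen for mention after its value was seen. It was at 78.7, 88.3 and 81.5 CPM in IL-4+CGRP, against 110.01, 104 and 106 CPM in IL-4, 1.29-fold lower (-0.37 ± 0.06, SE; edgeR adjusted p = 0.0040). In both genes the groups did not overlap.

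Dividing precursors of the marrow would also carry replication transcripts. All 7 myeloid progenitor markers had counts in every library, and their sum was 10.7 to 12.8 CPM in IL-4+CGRP and 14.01 to 14.9 CPM in IL-4, without overlap. The sums of other markers were 15.1 to 17.001 CPM in IL-4+CGRP and 17.2 to 19.1 CPM in IL-4 for neutrophils, with Ly6g at 0 in every library, and 18.4 to 21.2 CPM in IL-4+CGRP and 21.02 to 22.8 CPM in IL-4 for lymphocytes. They were 15.5 to 21.4 CPM in IL-4+CGRP and 24.7 to 26.7 CPM in IL-4 for dendritic cells, 9.24 to 11.1 CPM in IL-4+CGRP and 11.8 to 13.0 CPM in IL-4 for mast cells and basophils, and 47.8 to 54.2 CPM in IL-4+CGRP and 42.9 to 46.1 CPM in IL-4 for stroma. Erythroid markers summed to 0 to 0.225 CPM in IL-4+CGRP and 0.0506 to 0.329 CPM in IL-4, with Hbb-bs and Car1 at 0 in every library. Of the tested markers, 2 of 5 dendritic ones fell and 3 of 10 macrophage ones rose in edgeR. Of all tested genes, 1.54% were called lower and 2.32% higher. The part of other cells in the results was not tested.

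Gene length moved with the libraries too. The median log2 fold change was -0.07 in the shortest 3315 tested genes (up to 1733 bases) and 0.04 in the longest 3315 (from 4193 bases). The short genes were high in IL-4+CGRP replicate 2 and IL-4 replicate 1, by 0.10 and 0.11 on the log2 scale, and low in IL-4+CGRP replicates 1 and 3, by -0.09 and -0.10. The longest genes were high in IL-4+CGRP replicates 1 and 3, by 0.05 and 0.07. They were low in IL-4+CGRP replicate 2 and IL-4 replicate 1, by -0.06 and -0.04. Pcna is a short gene, at 1518 bases. With each library's length trend removed, its log2 fold change was -0.24 (edgeR adjusted p = 0.0050), and Lig1, at 3166 bases, was called as well (-0.33, adjusted p = 0.023). Mki67 is a long gene, at 10061 bases, and its log2 fold change was 0.12 with the trend removed (edgeR adjusted p = 0.26). Exons of 13 of the 37 genes overlap those of a gene on the opposite strand that has counts, among them Lig1, Fen1, Gins2, Rfc4, Mcm7 and Ccne2. The neighbour's mean count was above the gene's own for Rfc4 (4495.9 against 89.5), Ccne2 (367.5 against 32.9), Gins2 and Mcm7. The same held for Orc6, Cdc45, Chaf1a, Rfc2, Rfc5 and Tk1. The neighbour's count was below the gene's own for Lig1 (172.0 against 395.2), Fen1 and Orc1. Since the use of strand in counting is not stated, reads of the 13 genes cannot be told apart from those of the neighbour. Pcna, Gmnn, Dna2 and Kif11 have no such overlap. Over the 37 genes with the trend removed, the median was -0.095 and 28 values were below 0.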

How the data were processed

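RNA from 6 libraries was sequenced after stranded mRNA preparation, per the labels' protocols. The submitters' processing notes name fastp, HISAT2, StringTie and mouse build GRCm39; versions, annotation, counting and strand use: not given in the sources used here. The deposited values are estimated counts (expected counts) per gene made by the authors, of which 23.3% to 26.6% of those above 0 in a library were not whole (tolerance 1e-06). The authors' group means served only to check the columns, and the deposited gene length gave CPM per kb.

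Estimated counts were rounded and filtered with filterByExpr, which left 13260 genes, and scaled with TMM (factors 0.985 to 1.016). The test was edgeR 4.0.16's quasi-likelihood F test in R 4.3.3, two-sided, with robust dispersions and no covariates. P-values were adjusted by Benjamini-Hochberg over the 13260 genes, with 0.05 as the threshold. The SE is the log2 fold change over the square root of F, and the interval is a t interval around it. The common biological coefficient of variation was 8.62%. Replicates differed by more than counting noise. In simulated data with 200 genes changed and no library set apart from its group, 0.031% of unchanged genes were called.

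The 37 genes and all lists were chosen with earlier results of these data known, so no list was tested as a whole. Values per library were given for genes past the threshold, the most abundant 2 of each role group (1 where it has 3 or fewer) and the 3 largest changes that did not pass. Of other genes, those past the threshold, Samhd1, Gmnn, Dnmt1, Rb1, Cdkn1c, Mki67 and Top2a were named. Alternatives were size factors of DESeq2, upper quartile scaling, library totals, no filter, a minimum mean count of 50, DESeq2 1.42.0, limma-voom (limma 3.58.1), dispersions without the robust option, a replicate block, and libraries left out singly or as a pair. Removing each library's length trend (lowess, span 0.3) was chosen after seeing the data. Gene overlaps were read from GENCODE M21, with no coordinates carried between builds.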

Additional observations from a re-analysis of the deposited data

How the results depend on the processing

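The count of 1 replication gene called lower became 2 with no count filter and with the length trend removed (Lig1 added). That was 5.41% of the set, against 1.83% and 2.93% of all tested genes called lower in those 2 fits. It became 4 (10.8%) when both IL-4+CGRP replicate 2 and IL-4 replicate 1 were left out, against 8.88% of all tested genes. Leaving out single libraries gave 0 to 4 lower, against 0.592% to 7.04% of all tested genes. It gave 0 higher, and the median log2 fold change was -0.156 to -0.060. Other replication genes called higher numbered 1 with no filter and with the length trend removed (E2f4), 2 with the pair left out and 0 to 1 without single libraries. Those called lower numbered 1 under limma-voom and without robust dispersions, 4 with the pair left out, and 1 to 4 without single libraries. With the pair left out, 8.88% of all tested genes were called lower and 7.97% higher. Without single libraries, 0.592% to 7.04% were called lower and 1.03% to 6.78% higher. Higher calls made up 2.46% with no filter and 3.55% with the length trend removed. These shares also stand beside the mitosis counts that follow. Without IL-4+CGRP replicate 2, E2f4 was called higher, and Gmnn, Dna2, Nme1 and Rbbp7 were called lower. In that fit 6.78% of all tested genes were called higher and 7.04% lower. Mitosis genes called lower numbered 0 under library totals, DESeq2, limma-voom and without robust dispersions, and 0 to 1 without single libraries; those called higher numbered 1 with the pair left out and 0 to 1 without single libraries. Calls over all genes, 511, were 1018 with no filter, 860 with the length trend removed, 2253 with the pair left out and 222 to 1865 without single libraries. The causes were not tested.

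Whether the replicate numbers pair the libraries is not stated. The correlations of same-numbered deviations were -0.188, -0.182 and 0.130, which cannot settle it. With the replicate number as a block, 0 replication genes, 1 other replication gene, 0 mitosis genes and 262 of all genes were called lower or higher, and the calls of Pcna (-0.29, edgeR adjusted p = 0.059), Gmnn (-0.53, adjusted p = 0.075) and Kif11 (-0.48, adjusted p = 0.10) ended.

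Of 626 values of single replication genes under alternatives, 593 kept their direction and side of the threshold and 22 changed sign. Among genes that had not passed, the log2 fold change was 0.0034 for Mcm4, 0.016 for Chaf1a and 0.00018 for Samhd1 with library totals alone, 0.0022 for Orc6 with the length trend removed, and 0.026 for Rrm1 and -0.090 for Tyms with the pair left out. Without single libraries, Orc1 ran from -0.34 to 0.060, Mcm4 from -0.058 to 0.032, Cdc45 from -0.058 to 0.30, Prim1 from -0.25 to 0.087, Rfc2 from -0.011 to 0.069, Rrm1 from -0.12 to 0.033, Tyms from -0.098 to 0.13, Chaf1a from -0.15 to 0.074, Chaf1b from -0.075 to 0.15 and E2f1 from -0.00073 to 0.081. Depth limits Orc1 and Ccne2 most, at 13 to 45 counts per library.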
